A study of Mus musculus with 10 samples.

Results

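The nuclear genes of mitochondrial complex I were followed in the left ventricle of mice. Members were all genes whose symbol starts with Nduf, pseudogenes left out, with a level above 0 in at least 9 of 10 mice. This gave 43 of the 29564 genes listed, of which 37 are named as subunits and 6, whose symbols start with Ndufaf, as assembly factors. All 43 were among the 13301 genes tested, and they lie on 16 chromosomes. Of 45 Nduf genes listed, Ndufa4 was listed at 0 in 6 mice and reached at most 0.224 TPM as deposited (level per transcript length, scaled to a common total in each mouse), and Ndufaf7 was listed at 0 in 7 mice and reached at most 0.350 TPM, so neither was a member. A listed 0 is an estimate and does not show that a gene is not expressed: Ndufa4 is usually abundant in heart, and whether its reads were assigned to another locus was not tested. The members all had a level above 0 in every mouse, the lowest being 3.98 TPM, on the scale of the tested genes, for Ndufa4l2 in HFD+mTAC TT-589.

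Polyadenylated RNA of whole left ventricular tissue was sequenced from 5 control mice and 5 HFD+mTAC mice. All were wild type of strain C57BL6 and labelled as given vehicle. The methods give vehicle at 10 mL/kg once daily for 6 to 9 weeks, a range over the heart failure models of the study. The study also sequenced hearts taken hours after a single dose, so the time these mice were given vehicle is not settled. Per the methods of the study, mice were C57BL/6J males that arrived at 10 weeks of age, and HFD+mTAC mice had moderate transverse aortic constriction, a partial tie around the aorta that loads the ventricle with pressure, at 11 weeks and then ate a diet with 60% of kilocalories from fat, with 16 weeks of both before the vehicle was started. Control mice ate chow with 10% of kilocalories from fat and had no operation, so effects of the diet, the constriction and the surgery cannot be told apart. The study made these mice to model heart failure in which the ejection fraction is preserved.

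Complex I, or NADH:ubiquinone oxidoreductase, is the entry enzyme of the respiratory chain. It passes electrons from NADH to ubiquinone in its peripheral arm and pumps protons across the inner mitochondrial membrane with its membrane arm, and heart muscle, which burns fat and sugar without pause, is rich in it. Its subunits come from both genomes, and it is built from modules: the N module takes electrons from NADH, the Q module hands them to ubiquinone, and the ND1, ND2, ND4 and ND5 modules, each named for a mitochondrially encoded subunit, form the pump. Assembly factors help to join these modules and leave the finished enzyme.

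The promoters of the members differ in sequence although the genes serve 1 enzyme, and a part of them holds the palindrome-like motif of NRF1, a transcription factor long known for its sites in nuclear genes of the respiratory chain. RefSeq promoters (GRCm38.p6, 250 bases before to 50 bases after the start) were matched by symbol for 37 members. The others had no entry. The letters GCGCA, any base and GCGC, searched in a row on both strands, stood in the promoters of 9 of the 37 (24.3%), against 5.19% of all 27025 genes with a promoter entry and 10.8% of the tested genes with one. The 11 matches of these 9 genes are shown to let the surroundings of the motif be compared. Each line gives 30 bases on the strand of the gene, with the letters of the motif, or of its reverse complement, in capitals.
Ndufaf4 (chr4:24897960-24897989, plus strand): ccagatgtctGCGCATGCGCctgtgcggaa
Ndufaf5 (chr2:140170652-140170681, plus strand): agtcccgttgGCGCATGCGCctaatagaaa
Ndufa11 (chr17:56717692-56717721, plus strand): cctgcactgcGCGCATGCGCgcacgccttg
Ndufa5 (chr6:24527697-24527726, minus strand): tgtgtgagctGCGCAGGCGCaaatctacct
Ndufs5 (chr4:123718265-123718294, minus strand): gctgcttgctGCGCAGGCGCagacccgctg
Ndufb4, nearest the start (chr16:37654371-37654400, minus strand): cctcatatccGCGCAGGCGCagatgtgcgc
Ndufb4, middle (chr16:37654428-37654457, minus strand): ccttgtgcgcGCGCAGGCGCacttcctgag
Ndufb4, farthest (chr16:37654540-37654569, minus strand): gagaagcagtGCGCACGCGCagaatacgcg
Ndufa8 (chr2:36049349-36049378, minus strand): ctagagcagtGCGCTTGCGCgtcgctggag
Ndufa6 (chr15:82354249-82354278, minus strand): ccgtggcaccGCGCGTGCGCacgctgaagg
Ndufs6 (chr13:73328479-73328508, minus strand): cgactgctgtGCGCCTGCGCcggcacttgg

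In 9 of these 11 matches the motif began before the start in the RefSeq promoter entry, from 16 bases before it in Ndufs6 to 191 bases in Ndufb4. In Ndufa6 and Ndufaf5 it began 23 and 16 bases after that start. These distances depend on the start chosen, and Ndufa5 also has another RefSeq start, farther from its match. By the gene bounds of GENCODE M21, the matches of Ndufa5, Ndufa6, Ndufa8, Ndufaf5 and Ndufs6 and the nearest and middle ones of Ndufb4 lie inside the gene. Ndufb4, a subunit of the ND4 module, was the member with most matches. The promoter of Ndufaf4, the member with the smallest p in the comparison of the groups, is shown at length (GRCm38.p6, chr4:24897833-24898082, plus strand, the 250 bases before its start) with the same motif in capitals, beginning 113 bases before the start.
Ndufaf4: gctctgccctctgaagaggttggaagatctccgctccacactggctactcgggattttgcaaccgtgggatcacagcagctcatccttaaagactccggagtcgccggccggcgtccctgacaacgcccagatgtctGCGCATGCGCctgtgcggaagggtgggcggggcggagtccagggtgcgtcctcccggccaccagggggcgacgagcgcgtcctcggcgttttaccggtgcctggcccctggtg

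Other motifs were less frequent among the members. The letters AA, any base and ATGGCGG, a form of the YY1 motif, stood in the promoters of Ndufa9, Ndufs4, Ndufs6 and Ndufs7, which is 10.8% of members, 1.59% of all genes and 3.54% of tested genes. CCGGAAG, the core of ETS factors such as GABP, was in 5 promoters (13.5%, against 9.93% of all and 18.5% of tested genes), those of Ndufaf1, Ndufb6, Ndufb7, Ndufs3 and Ndufs8. AAGGTCA, the core motif of estrogen-related receptors, which drive genes of oxidative metabolism in heart, was in those of Ndufb2, Ndufb4 and Ndufs5 (8.11%, against 5.38% and 3.94%). The median GC content of the members' promoters was 59.3%, near that of tested genes (60.7%) and above that of all genes (52.7%). These motifs were searched on both strands too, and no match of theirs shares bases with an NRF1 match, although Ndufs6 held letters of both NRF1 and YY1, and Ndufb4 and Ndufs5 held letters of both NRF1 and the receptors. All such matches are letters in a window and not measured sites.

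Before any comparison, members differed widely in level. On the TPM scale, which divides by transcript length and was recomputed over the tested genes, the median of the subunits was 1076, that of the assembly factors 68.1 and that of all genes 6.70. In the order of all tested genes by TPM, 34 members stood among the top 500 and 14 among the top 100, and all of these were subunits. Ndufb9 and Ndufb10, small accessory subunits of the membrane arm, led with mean TPM of 3973 and 3510, followed by Ndufa3, of the ND1 module, with 3288. The lowest subunits by TPM were Ndufa4l2 (6.54), Ndufs4 (29.8) and Ndufa9 (123), whose effective lengths were 3.01, 1.08 and 1.62 times their longest annotated transcript, which lowers TPM. An effective length above the longest annotated transcript was found for 5 members and for 47.7% of all tested genes. Ndufs4 is an accessory subunit of the N module whose loss causes mitochondrial disease, and Ndufa9 is a Q module subunit near the ubiquinone site. Among the factors, on TPM, Ndufaf2 (108), a relative of Ndufa12 that is replaced by it late in assembly, and Ndufaf3 (93.2) were highest. Ndufaf4 (60.5) and Ndufaf5 (15.5) were lowest.

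**Figure D1:**
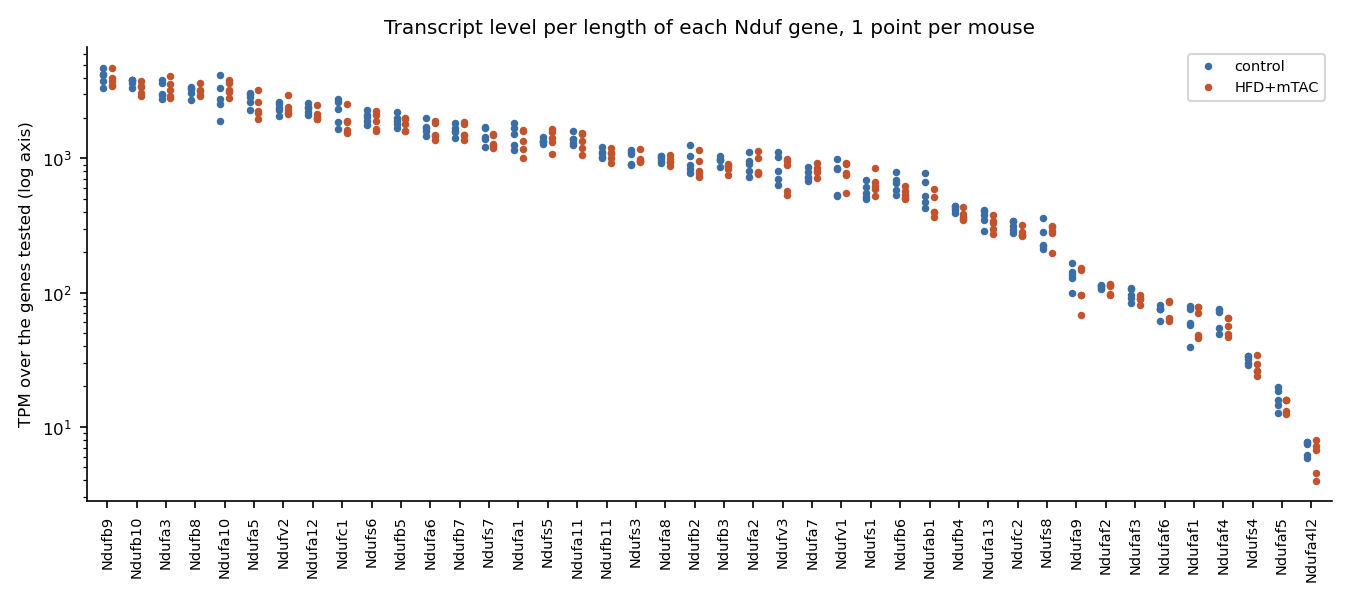
TPM over the tested genes (log axis) of 42 Nduf genes, ordered by mean, with 1 point per mouse, blue for control and orange for HFD+mTAC. Ndufb9 leads with a mean of 3973 and Ndufa4l2 is last with 6.54, and the assembly factors lie among the low levels.

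The order of members depends on the lengths that TPM divides by. The effective length, the length of a gene's transcripts that can yield reads as the authors' software estimated it, had a median of 315 bases over the members and 3138 bases over all tested genes, and every member was below the latter. When CPM (counts scaled to the size of the library, with TMM, a trimmed mean of ratios between libraries) were divided by the longest annotated transcript in kilobases instead, Ndufb9 and Ndufb10 were again first, but the next place passed from Ndufa3 (424) to Ndufa5 (747). Ndufa4l2 (18.9) and Ndufs4 (31.0) were again the lowest subunits, but Ndufb2 (49.4) came next in place of Ndufa9 (190.0). The order of the factors turned over, with Ndufaf1 (47.8) and Ndufaf4 (23.3) highest and Ndufaf2 (10.9) lowest. Across the 43 members, which are not independent, the order by this measure had a Spearman rho of 0.75 with that by TPM. Ndufv1, the core subunit that binds NADH and the flavin, shows what a length can do to a level. Its effective length was 1475, 1011, 1116, 797 and 1634 bases in the control mice, whereas it was 1134, 1142, 835, 1439 and 979 bases in the HFD+mTAC mice. Its CPM stayed between 736 and 879 in all 10 mice, whereas its TPM ran from 524 to 989. Such lengths varied by more than 1.5 times between mice for 7 members (16.3%) and for 43.0% of all tested genes.

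In the comparison of HFD+mTAC with control mice no member passed the test, and nearly all of them leaned slightly to lower levels. On counts, tested with edgeR's quasi-likelihood test, 0 of 43 members had an adjusted p under 0.05 (background 0.0601% of all tested genes), and the smallest adjusted p was 0.488, for Ndufaf4. DESeq2 called 0 members as well, with a smallest adjusted p of 0.349. At an unadjusted p under 0.05, 2 members were lower, Ndufaf4 and Ndufb3 (background 3.72% of genes), and 0 were higher (background 4.54%). The log2 fold change was below 0 for 36 of 37 subunits and 6 of 6 assembly factors, against 49.7% of all genes, with a median of -0.13 over subunits, -0.18 over factors and 0.00 over all genes. Members are not replicates, since all share the same mice, and no test was made over the list.

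The differences were small beside the spread. Of the 43 members, 41 had a log2 fold change smaller than 0.25 in size, their median standard error was 0.11, and for 31 the means differed by less than the larger of the SDs within the groups. In 0 of 43 did the groups separate in CPM, where 0.887% of all genes had every HFD+mTAC mouse below every control mouse and 1.08% every one above. Without control TT-587 the median over subunits was -0.07, and without HFD+mTAC TT-588 it was -0.08. Without control TT-585, HFD+mTAC TT-589, HFD+mTAC TT-590 or HFD+mTAC TT-591 the number of members lower at an unadjusted p under 0.05 was 7, 4, 8 and 4. The background in these fits was 4.14%, 3.62%, 3.66% and 4.32% of all tested genes. The number of such members was 1 without control TT-584 or HFD+mTAC TT-588 (background 3.02% and 3.46%). It was 0 without control TT-583 or HFD+mTAC TT-592 (background 2.80% and 3.62%).

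Genes that mark heart muscle cells also had lower values in HFD+mTAC mice. Markers of cardiomyocytes (8 genes) summed to 71749 to 80466 CPM in control and 59693 to 73322 CPM in HFD+mTAC mice. The largest parts came from Myl2, Actc1, Tnnt2 and Atp2a2, whereas Myh6 had a mean of 832 CPM (rank 151 of the tested genes by CPM). All 8 had log2 fold changes below 0, none with an adjusted p under 0.05, and the sums gave p = 0.0238 (two-sided exact permutation test) and 0.190 after adjustment over 8 marker lists. The median of the marker sums was lower in HFD+mTAC mice, as were most subunits and factors. The part of the sum in the lower values of the members was not tested. In tissue RNA, fewer cells of a type and less RNA per cell cannot be told apart.

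**Figure D2:**
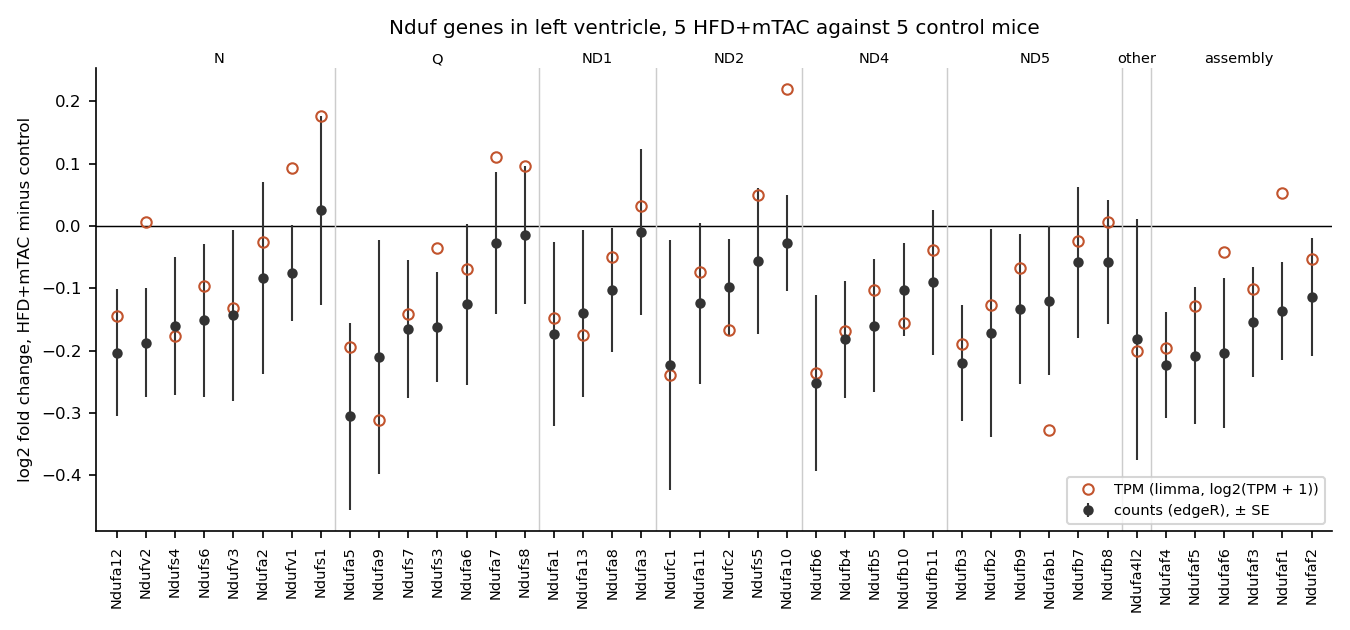
Log2 fold change (HFD+mTAC minus control, n = 5 per group) of 42 Nduf genes, grouped by module, from counts with the standard error (filled points) and from TPM (open points). On counts 41 of these lie below 0, with Ndufa5 lowest at -0.31 and Ndufs1 alone above 0 at 0.02, and on TPM 32 of 42 lie below 0.

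Between them, the nuclear core subunits hold the flavin and the iron-sulfur clusters that carry electrons. Of these 7 subunits 6 had values below 0, with a median of -0.08, and 0 had an unadjusted p under 0.05 (background 3.72% lower and 4.54% higher). Ndufv2, an iron-sulfur subunit of the N module, was at 881, 949, 792, 880 and 954 CPM in control mice and at 687, 834, 863, 786 and 744 CPM in HFD+mTAC mice. All HFD+mTAC mice were below the control median and the ranges overlapped through 1 control mouse, TT-585. Its log2 fold change was -0.19 ± 0.09 (SE, edgeR adjusted p = 0.607, n = 5 per group), but 0.01 on the TPM scale. Ndufv1 had -0.08 ± 0.08 (SE, edgeR adjusted p = 0.862) on counts and 0.09 on TPM, again with all HFD+mTAC mice below the control median in CPM.

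Ndufs1, the largest iron-sulfur subunit, was the only member above 0 on counts. It measured 691, 666, 904, 831 and 643 CPM in control mice, compared with 895, 949, 640, 556 and 760 CPM in HFD+mTAC mice. Both groups held high and low mice, and the log2 fold change was 0.02 ± 0.15 (SE, edgeR adjusted p = 0.983). Its sign turned when single mice were left out, to as low as -0.07 without HFD+mTAC TT-589.

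In the Q module the core subunits Ndufs3, Ndufs7 and Ndufs8 had log2 fold changes of -0.16, -0.17 and -0.01. Ndufs3, a scaffold on which the module is built, was at 509, 517, 430, 441 and 530.3 CPM in control mice and at 385, 423, 467, 451 and 441 CPM in HFD+mTAC mice (edgeR adjusted p = 0.680). Every HFD+mTAC mouse was below the control median, and 3 control mice were above every HFD+mTAC mouse. Ndufs7 carries the last iron-sulfur cluster before ubiquinone and had an edgeR adjusted p of 0.765, with a log2 fold change of -0.10 without HFD+mTAC TT-588. Ndufs8, another iron-sulfur subunit, had an edgeR adjusted p of 0.987 and was above 0 on TPM, at 0.10.

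Supernumerary subunits surround the core and stabilise the enzyme. All 29 had values below 0, with a median of -0.13. Of them 1, Ndufb3, was lower at an unadjusted p under 0.05, a share near the background of 3.72% of genes. Ndufb3, of the ND5 module at the far end of the membrane arm, is encoded on the plus strand of chr1:58586384-58595964 (GRCm38, whole gene). It was at 269, 266, 248, 232 and 308 CPM in control mice and at 202, 235, 234, 253 and 213 CPM in HFD+mTAC mice. All HFD+mTAC mice were below the control median and 2 were below every control mouse. The log2 fold change of Ndufb3 was -0.22 ± 0.09 (SE, edgeR unadjusted p = 0.0360, adjusted p = 0.555). On TPM it was -0.19, and there Ndufb3 alone among members had an unadjusted p under 0.05 in limma (background 1.98% of genes lower).

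Ndufa5, an accessory subunit of the Q module (minus strand of chr6:24518666-24528013, whole gene), had the lowest value of all members. In CPM it was at 749, 705, 599, 653 and 904 across the control group, whereas the HFD+mTAC group was at 449, 500.3, 679.5, 748 and 546. Mice TT-588, TT-589 and TT-592 lay below every control mouse, whereas TT-590 and TT-591 lay within the control range. The log2 fold change was -0.31 ± 0.15 (SE, edgeR unadjusted p = 0.0639, adjusted p = 0.628), and -0.19 on TPM. Ndufa12, an N module subunit, was at 653, 649, 573, 687 and 719.8 CPM in control mice and at 518, 533, 705, 569 and 525 CPM in HFD+mTAC mice. Apart from TT-590, which stood near the top of the control range, the HFD+mTAC mice were below every control mouse. Its log2 fold change was -0.20 ± 0.10 (SE, edgeR unadjusted p = 0.0676, adjusted p = 0.639).

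**Figure D3:**
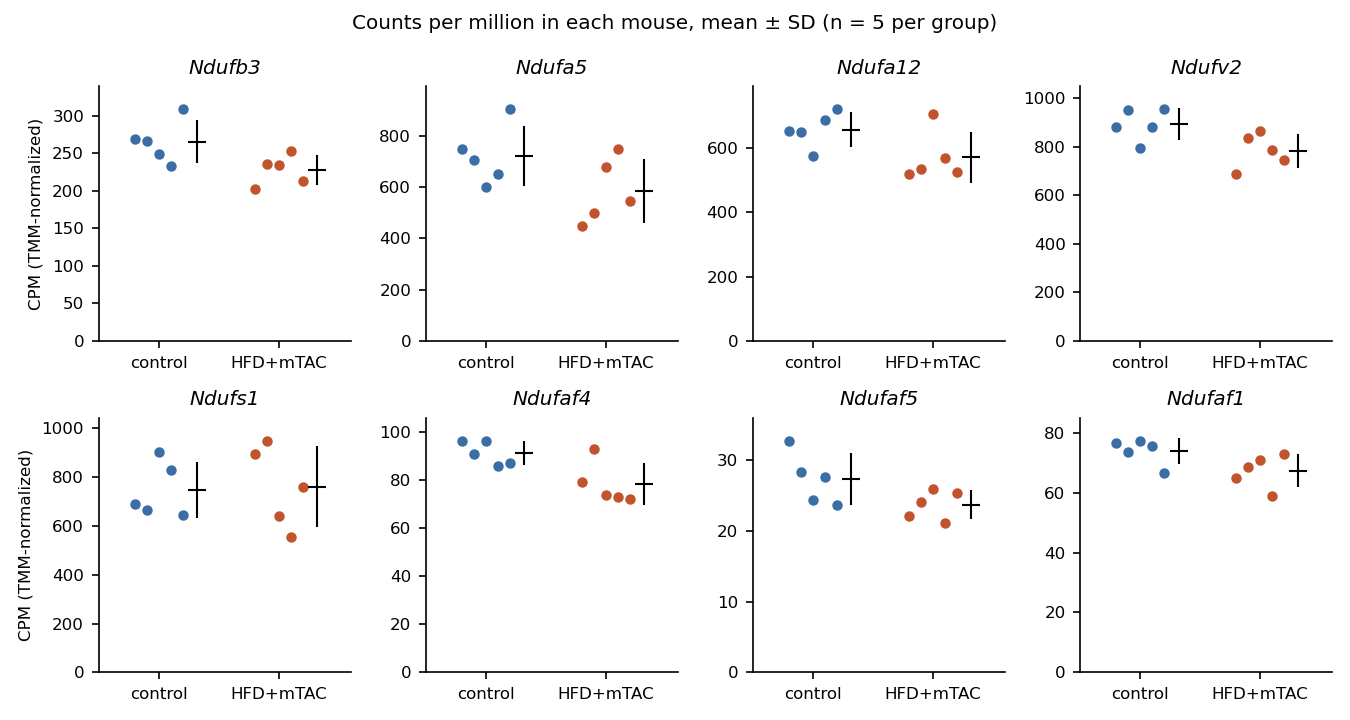
CPM in each mouse (axes from 0) of 4 subunits below 0, of Ndufs1 and of 3 assembly factors, blue for control and orange for HFD+mTAC, with the mean and SD of 5 mice beside each group. The groups overlap in every panel, and in Ndufaf4 and Ndufa12 4 of 5 HFD+mTAC mice lie below all control mice.

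By module the medians lay close together, from -0.10 in the ND2 module to -0.16 in the ND4 module. Values were below 0 for 7 of 8 genes of the N module (median -0.15), 8 of 8 of the Q module (-0.14), 4 of 4 of the ND1 module (-0.12), 5 of 5 of the ND2 module, 5 of 5 measured of the ND4 module, and 6 of 6 of the ND5 module (-0.13). In the peripheral arm 15 of 16 genes were below 0 (median -0.15), and in the membrane arm 20 of 20 (median -0.12). Differences between modules were not tested. Ndufb1, of the ND4 module, was not analysed here.

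Ndufa4l2 is named as a subunit but is not part of complex I, being a relative of Ndufa4, now placed in cytochrome c oxidase, and is known to be induced by low oxygen. It was at 20.6, 16.8, 16.2, 21.6 and 24.6 CPM in control mice and at 12.7, 12.3, 23.3, 21.7 and 18.0 CPM in HFD+mTAC mice. Mice TT-588 and TT-589 were the lowest and the others overlapped the controls, with a log2 fold change of -0.18 ± 0.19 (SE, edgeR adjusted p = 0.871). It was -0.10 without control TT-587, and -0.09, -0.08 and -0.30 without HFD+mTAC TT-588, TT-589 and TT-590.

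All 6 assembly factors had values below 0, from -0.22 in Ndufaf4 to -0.11 in Ndufaf2. Ndufaf4 (plus strand of chr4:24898083-24905001, whole gene) acts with Ndufaf3 early in assembly, on the Q module. It was at 96.3, 90.9, 96.0, 85.7 and 87.2 CPM in control mice and at 79.2, 93.0, 73.6, 73.0 and 72.2 CPM in HFD+mTAC mice. All but TT-589 of the HFD+mTAC mice were below every control mouse, and TT-589 was within the control range. The log2 fold change was -0.22 ± 0.09 (SE, edgeR unadjusted p = 0.0221, adjusted p = 0.488) and -0.20 on TPM.

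Ndufaf5, which hydroxylates an arginine of Ndufs7, was at 32.8, 28.4, 24.4, 27.6 and 23.7 CPM in control mice and at 22.1, 24.1, 25.9, 21.1 and 25.4 CPM in HFD+mTAC mice (log2 fold change -0.21 ± 0.11 SE, edgeR adjusted p = 0.669). All HFD+mTAC mice were below the control median within an overlapping range, and the log2 fold change was -0.13 without control TT-583. Ndufaf1, a member of the complex that assembles the ND2 part of the membrane arm, was at 76.6, 73.5, 77.3, 75.7 and 66.6 CPM in control mice and at 65.0, 68.6, 71.0, 58.9 and 72.9 CPM in HFD+mTAC mice. Only control TT-587 fell into the HFD+mTAC range. The log2 fold change was -0.14 ± 0.08 (SE, edgeR adjusted p = 0.706) on counts but 0.05 on TPM.

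Of 11 further assembly factors of complex I without an Nduf name, 10 were matched and all 10 had values below 0, with a median of -0.10 and 0 with an adjusted p under 0.05. Tmem126a, which acts in assembly of the ND4 module, was lowest at -0.34 ± 0.11 (SE, edgeR unadjusted p = 0.00898, adjusted p = 0.398). It was the 1 of 10 with an unadjusted p under 0.05 (background 3.72% of genes lower). The partners of Ndufaf1 in its complex, Ecsit, Acad9 and Tmem126b, had -0.01, -0.22 and -0.11. Coa1 was not matched.

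The mitochondrially encoded subunits, which are the core of the membrane arm, lay on both sides of 0. In a fit with all biotypes their log2 fold changes ran from -0.46 in mt-Nd3 to 0.23 in mt-Nd6, 2 of 7 were below 0, and none had an unadjusted p under 0.05, the smallest edgeR adjusted p being 0.813 for mt-Nd3. The mt-Nd genes together had 22.0 ± 5.27 counts for each count of the 37 nuclear subunits in control mice and 26.1 ± 3.64 such counts in HFD+mTAC mice (SD, n = 5 each). Controls TT-583 and TT-584 were at 16.5 and 16.4 such counts. Controls TT-585, TT-586 and TT-587, at 26.8, 27.0 and 23.3, lay within the HFD+mTAC range of 23.3 to 30.4. Nuclear copies of mitochondrial DNA may take a part of these reads, so their levels are uncertain.

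Within each group the mice differed from each other in all members together. Taken as the median over members of log2 CPM minus the mean of 10 mice, control TT-587 was highest at 0.24, TT-584, TT-583 and TT-586 were at 0.12, 0.10 and 0.01, and TT-585 was at -0.07. Among HFD+mTAC mice, TT-588 was lowest at -0.28, TT-592 and TT-589 were at -0.18 and -0.10, and TT-590 and TT-591, at 0.10 and 0.09, were close to controls TT-583 and TT-584. The number of members below their own mean was 40, 33, 6, 17 and 35 in the HFD+mTAC group, in the order TT-588 to TT-592, against 8, 6, 33, 21 and 7 in the control group, in the order TT-583 to TT-587. Subunits and factors parted in TT-591, where the median deviation was 0.13 for subunits and -0.21 for factors and 6 of 6 factors were below their mean. Their signs also differed in control TT-585 (-0.09 for subunits and 0.01 for factors) and control TT-586 (-0.01 and 0.11). Members took between 1.49% and 1.97% of the counts of tested genes and between 4.81% and 5.77% of TPM.

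**Figure D4:**
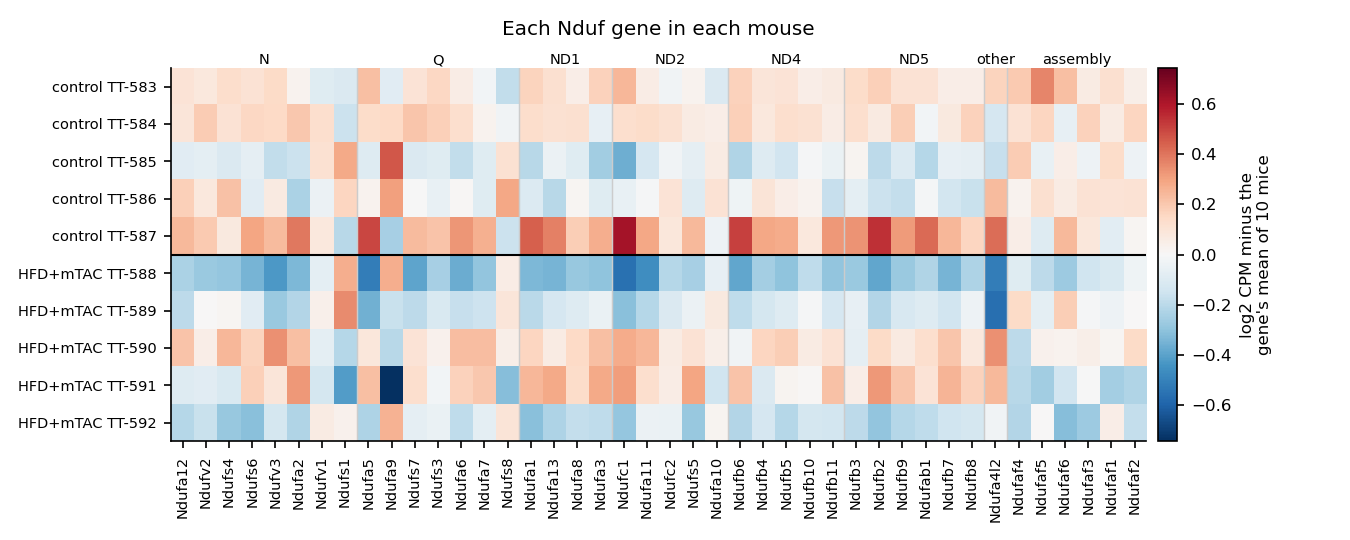
Deviation of log2 CPM from the mean of 10 mice for 42 Nduf genes (columns, by module) in each mouse (rows, control above the line), red for higher and blue for lower. Most genes are blue in HFD+mTAC TT-588, TT-589 and TT-592 and red in TT-590 and TT-591 as in most control mice, while Ndufs1 and Ndufa9 go another way in several mice.

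Transcript length moved with these deviations in most mice. Across all 13301 genes, the Spearman rho between a gene's deviation and its effective length was -0.08, -0.13, 0.12, 0.02 and -0.14 in the control group and 0.30, 0.13, -0.18, -0.07 and 0.08 in the HFD+mTAC group, in the same order. It had the sign opposite to that of the members' median deviation in 9 of 10 mice, the exception being TT-586, and between the groups the rho of log2 fold change with length was 0.12 across genes. Mice in which the members were low were mostly mice in which shorter genes tended to be lower, and all members are short by this measure. The relation was weak in most mice, with the largest rho, 0.30, in TT-588. The part of length in the members' lean was not tested.

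**Figure D5:**
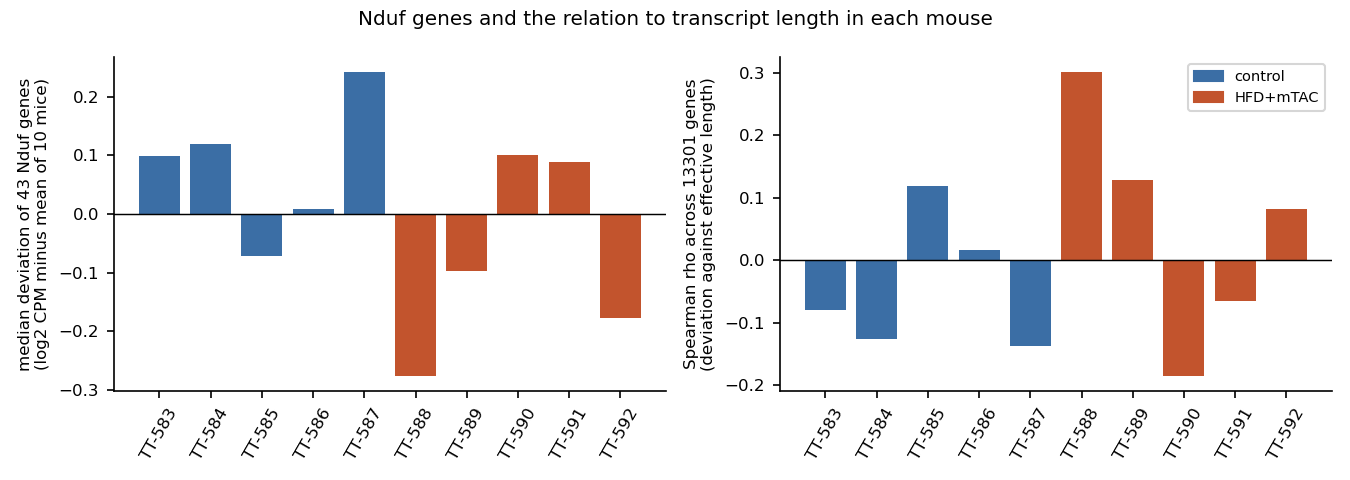
Left, the median deviation of the 43 Nduf genes in each mouse (log2 CPM minus the mean of 10 mice). Right, the Spearman rho across 13301 genes between deviation and effective length in the same mouse. Bars start at 0, blue for control and orange for HFD+mTAC, and in 9 of 10 mice the bars of both panels point opposite ways.

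On scales that use the effective lengths estimated in each mouse fewer members were below 0. They adjust for changes in a gene's own estimated length between mice, not for the relation of deviation to length across genes. On log2(TPM + 1) in limma, 32 of 43 members were below 0 (background 44.1% of genes), with medians of -0.10 over subunits and -0.08 over factors. The sign differed from that on counts for 10 members, among them Ndufa10, Ndufa3, Ndufa7, Ndufb8, Ndufs5, Ndufs8, Ndufv1, Ndufv2 and Ndufaf1, of which Ndufa10 was highest at 0.22. With effective lengths as an offset in edgeR, 34 of 43 were below 0 (background 49.5%), and the medians were -0.11 and -0.11. These lengths are themselves estimates that differ between mice, as those of Ndufv1 show.

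Libraries were of similar depth, with 34.2 to 53.7 M estimated counts in control and 35.8 to 46.7 M in HFD+mTAC mice, of which 12.7 to 21.1 M fell on tested genes and 43.8 to 52.7% on mitochondrially encoded genes. Sums for fibroblast, endothelial, macrophage, smooth muscle and erythroid markers overlapped between the groups (exact permutation p from 0.690 to 0.857), the 4 adipocyte markers summed to at most 4.64 CPM with Plin1 at or near 0, and the atrial markers Myl7 and Sln were near 0, with a sum of 4 atrial markers, mostly Nppa, giving p = 0.0873 (exact permutation).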

How the data were processed

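Left ventricular RNA of 5 control and 5 HFD+mTAC mice was analysed, with groups taken from the labels. Per the study's methods, reads of a stranded mRNA kit were trimmed with fastp and quantified with salmon (version 1.6.0 per the labels) on GENCODE transcripts of GRCm38. The authors deposited estimated counts and TPM per gene, and effective lengths (a score in bases), as tximport gives them. Labels and methods differ in read length and type.

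Counts were rounded and tested with edgeR 4.0.16 in R 4.3.3 (TMM, quasi-likelihood, Benjamini-Hochberg over 13301 genes) on protein-coding genes, mitochondrially encoded ones left out, with at least 1 count in 9 of 10 mice, annotated by symbol with GENCODE M21. TPM were renormalized over these genes and tested as log2(TPM + 1) with limma 3.58.1. Single values were compared by two-sided exact permutation over 252 arrangements, of which the smallest p is 0.00794. Libraries carry separate mouse numbers, and the labels give no batch. The 20 pairs of libraries within the groups differed by at least 12.9 chi-square per degree of freedom, so that no pair looked like the same library sequenced again. This check cannot tell separate libraries of the same heart from libraries of different mice. The method was tested on simulated data.

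Members and lists were chosen with earlier results of these data known. Named were the 4 subunits and 2 factors lower, and up to 2 of each higher, with the smallest p, those whose groups do not overlap, the 3 subunits and 2 factors highest and lowest in TPM, and, by role, the 7 core subunits, Ndufa5, Ndufa4, Ndufa4l2 and Ndufaf1. A gene that the rule selects is not reported here, but counts and medians over members include it. Alternatives were DESeq2 1.42.0, its size factors or upper-quartile scaling in edgeR, pseudocounts 1 and 0.1, other filters, all biotypes, lengths as offset and omission of each mouse.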

Additional observations from a re-analysis of the deposited data

Results flagged for a closer look

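Each member was checked in each group of 5 mice for a mouse that stands apart from the other 4 (Dixon's criterion, critical value 0.71), and 2 of 86 checks (2.33%) found one, where chance gives about 1 in 20. Ndufa12 in HFD+mTAC mouse TT-590 was at 705 CPM while the other 4 were between 518 and 569. Ndufs8 in HFD+mTAC mouse TT-591 was at 96.6 CPM while the other 4 were between 124 and 129.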

How the results depend on the processing

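Under 20 alternative settings, 0 members had an adjusted p under 0.05, and of 260 fold changes of 13 named members 240 kept their sign. Members below 0 numbered 39 to 42 with each mouse left out. Members lower at an unadjusted p under 0.05 numbered 2 in the reported fit (background 3.72% of genes) and 4 in DESeq2 (background 4.31%). They numbered 1 in limma on log2(TPM + 1) or log2(TPM + 0.1) (background 1.98% and 2.10%) and 1 with lengths as offset (background 3.42%). With 1 mouse left out they numbered 0 to 8 (background 2.80% to 4.32%). Without the 3 libraries of shortest effective lengths (control TT-583 and TT-584, HFD+mTAC TT-592) they numbered 0 (background 2.42%). This setting was chosen after seeing the data, and in it 38 of 43 members were below 0. The cause was not tested. Signs turned for 5 of the 13 named members. On log2(TPM + 1) and log2(TPM + 0.1) Ndufv2 was at 0.0063 and 0.0063, Ndufv1 at 0.092 and 0.092, Ndufs8 at 0.096 and 0.096, and Ndufaf1 at 0.053 and 0.054. With lengths as offset Ndufv1 was at 0.032, Ndufs8 at 0.040 and Ndufaf1 at 0.0046. With 1 mouse left out Ndufs1 ran from -0.073 to 0.117 and Ndufs8 from -0.061 to 0.062. Without the 3 libraries Ndufs1 was at -0.061. No paired analysis was possible because the groups share no replicate numbers. With 5 mice a group the median standard error over members was 0.11, which limits what can be told from the spread.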
